A study of Mus musculus with 16 samples.

Results

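Molecular chaperones bind unfolded or partly folded proteins and help them to reach their native state. HSP70 proteins bind and release short exposed stretches under the control of J proteins (Dnaja, Dnajb and Dnajc genes), which stimulate the HSP70 ATPase. HSP90 acts on later folding steps of kinases and receptors, the chaperonins enclose a substrate in a barrel, and small heat shock proteins hold unfolded proteins without ATP. Some of these genes are strongly induced by heat shock factor HSF1, whereas others are transcribed in nearly every cell.

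The genes described here were chosen by symbol alone, as autosomal protein-coding genes of the GENCODE M21 annotation (mm10) whose symbols begin with Hspa, Hspb, Hspd, Hspe, Hsph, Hsp90, Dnaja, Dnajb or Dnajc or run from Cct2 to Cct8. This rule found 81 of 20807 genes, and no measured value entered it. By role they comprise 3 HSP90 genes, 14 HSP70 and HSP110 genes, the 2 genes of the mitochondrial chaperonin, 8 genes with CCT symbols, 8 small heat shock proteins and 45 J proteins, of which 4 are of class A, 13 of class B and 28 of class C. The remaining gene, Hspbap1, encodes a protein that associates with HSPB1 and is not itself a chaperone of these families. Cct6a is not annotated as protein-coding in this release and lies outside the rule.

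The chromatin came from mouse embryonic stem cells (mESCs), derived from blastocysts and kept with LIF and 2 kinase inhibitors, and from fibroblasts (MEFs) prepared from E10.5 embryos without the head and gut, all on a mixed DBA/2 x C57BL/6 background. Cells were Atxn7l3+/+ (WT) or Atxn7l3-/- (KO). ATXN7L3 is the adaptor that activates the H2B deubiquitylases USP22, USP27X and USP51, and the comparison asks how Pol II and monoubiquitylated histone H2B (H2Bub1), a mark laid down over transcribed genes by RNF20 and RNF40, are distributed without it. Libraries with antibodies to H2Bub1 and to the Pol II subunit RPB1 were analysed, 1 per cell type, genotype and antibody, so no difference below has a replicate check and no test was run. Many KO fibroblasts have a round shape and the study calls them MEF-like, and whether the MEFs of a genotype came from 1 embryo or from several is not given in the sources used here.

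Values of the 4 libraries of an antibody are always given in the order WT mESC, KO mESC, WT MEF, KO MEF. The promoter fold is the highest fold over local background of a Pol II peak within 1000 bp of the transcription start site (TSS) of the gene record. The H2Bub1 covered share is the percentage of the gene from TSS to end that lies inside H2Bub1 peaks, and the Pol II body share is the same for Pol II from 1000 bp after the TSS. Each fold is relative to the background of its own library, the read depth is unknown, and in a population of cells a higher fold in each cell cannot be told apart from occupancy in more cells.

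The lists differed in size before any gene was considered. The Pol II lists held 17074, 11963, 45870 and 32232 peaks, and the H2Bub1 lists held 40979, 48952, 19725 and 28856 peaks covering 71.6, 151, 48.1 and 223 Mb. Counts over chaperone genes are therefore set beside the same counts over all autosomal protein-coding genes. As a check of identity, all 6 fibroblast markers (Col1a1, Col1a2, Col3a1, Thy1, Twist2 and Pdgfra) had promoter peaks in both MEF lists and in neither mESC list, and 5 of 6 pluripotency markers (Pou5f1, Sox2, Nanog, Zfp42 and Tfcp2l1, but not Esrrb) had them in both mESC lists. Of these 6, Tfcp2l1 also had a promoter peak in the KO MEF list, at a fold of 7.08. Atxn7l3 itself kept a promoter peak in every list (3.61, 3.71, 20.9 and 23.4), and since the deletion runs from exon 2 to exon 12, this peak does not check the genotype. Its Pol II body shares (48.1%, 35.2%, 54.7% and 51.7%) and H2Bub1 shares (100%, 62.5%, 22% and 65.3%) include exon 13 and intron 1, which lie outside the deletion. Over the stretch from exon 2 to exon 12 (chr11:102291898-102295059) Pol II peaks covered 20.7%, 11.9%, 19.3% and 10.9%, and H2Bub1 peaks covered 100%, 13.0%, 21.6% and 19.6%. In the KO lists this coverage came from peaks that reach in from either end. Exon 2 lay inside H2Bub1 peaks of both KO lists and inside a KO MEF Pol II peak. Exon 12 lay inside the KO mESC Pol II peak, and H2Bub1 covered it at 6.96% in KO mESCs and 58.9% in KO MEFs. Between these exons, Pol II peaks still covered 7.57% in KO mESCs and 8.05% in KO MEFs. The peaks thus check the genotype only in part.

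Promoter sequences of a few members are shown first because heat shock and unfolded protein responses act on these genes through known elements. Sequences are from RefSeq (GRCm38.p6, the mm10 build), which matched 66 of the 81 genes through 85 start sites, and positions are counted upstream from the RefSeq start. The heat shock element was searched in the 250 bases before each start on both strands as 3 units, TTC and GAA in turn with 2 bases between units. It occurred at 4 of 85 start sites of chaperone genes (4.71%) and at 0.396% of the 19174 start sites of all autosomal protein-coding genes with an entry. The 4 sites belong to 3 genes, Hspd1 and Hspe1, which share one promoter, and Dnajb6, whose 2 start sites share the same element. In the lines that follow, capitals mark the element, and the first lies 95 to 66 bases before the Hspe1 start (chr1:55088053-55088082, + strand) and the second 54 to 25 bases before one listed Dnajb6 start and 135 to 106 bases before the other (chr5:29735844-29735873, + strand).
Hspe1: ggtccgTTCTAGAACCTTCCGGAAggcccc
Dnajb6: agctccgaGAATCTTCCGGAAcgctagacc

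A pair of neighbouring units, written as TTCNNGAA or GAANNTTC, was present at 19 of 85 start sites (22.4%) and at 11.8% of all start sites. It was searched after the stricter form had been seen to be rare, and matches of the stricter form are counted in it as well. Hspb1, which encodes the small heat shock protein HSP27, has this pair at 2 places within chr5:135887669-135887918 (+ strand), whose last base adjoins the start.
Hspb1: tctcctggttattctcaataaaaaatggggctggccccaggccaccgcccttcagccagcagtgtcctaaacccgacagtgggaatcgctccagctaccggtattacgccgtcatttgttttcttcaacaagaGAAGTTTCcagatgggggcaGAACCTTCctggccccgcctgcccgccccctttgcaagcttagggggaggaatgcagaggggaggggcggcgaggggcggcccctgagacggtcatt
Hspa1a and Hspa1b encode the strictly inducible HSP70 of the cytosol and are near-identical copies. Their 250 bases upstream are the same at 247 positions and differ at 3, so that reads of this stretch can be assigned to either copy only with uncertainty, and every value of the pair carries that limit. The Hspa1a stretch is chr17:34972157-34972406 (- strand).
Hspa1a: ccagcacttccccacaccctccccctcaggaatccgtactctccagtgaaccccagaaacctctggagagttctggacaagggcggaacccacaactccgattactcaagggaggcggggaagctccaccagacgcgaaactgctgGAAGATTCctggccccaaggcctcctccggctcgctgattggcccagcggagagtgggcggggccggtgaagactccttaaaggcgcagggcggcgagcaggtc

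The endoplasmic reticulum (ER) stress element, CCAAT and CCACG parted by 9 bases, was also searched after values had been seen. It was found at 3 of 85 start sites of chaperone genes (3.53%) and at 0.125% of all. The 3 genes, Hspa5, Hsp90b1 and Dnajc3, all encode chaperones of the ER lumen, namely BiP, GRP94 and the BiP co-chaperone P58IPK. Hsp90b1 holds the element on both strands, whereas the other 2 genes hold it once. The stretches are chr2:34772020-34772049 (+ strand) for Hspa5, chr10:86705510-86705694 (- strand) for Hsp90b1 and chr14:118937682-118937931 (+ strand) for Dnajc3, with the element in capitals.
Hspa5: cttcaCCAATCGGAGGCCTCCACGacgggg
Hsp90b1: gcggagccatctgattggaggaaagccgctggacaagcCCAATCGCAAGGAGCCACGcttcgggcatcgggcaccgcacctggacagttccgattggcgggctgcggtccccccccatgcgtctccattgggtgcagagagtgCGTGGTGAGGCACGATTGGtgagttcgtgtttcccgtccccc
Dnajc3: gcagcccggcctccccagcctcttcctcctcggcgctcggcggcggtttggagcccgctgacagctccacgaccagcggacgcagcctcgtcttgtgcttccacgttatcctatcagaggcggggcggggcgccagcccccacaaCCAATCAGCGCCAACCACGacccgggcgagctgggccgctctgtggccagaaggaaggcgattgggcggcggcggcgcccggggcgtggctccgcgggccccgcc
A match is a description of the letters and not of factor binding. Base composition differed from that of promoters at large. GGGCGG, the GC box, was found at 68.2% of their start sites and at 44.6% of all, CCAAT at 35.3% and 34.7%, and TATAAA at 4.71% and 11.2%. Their median GC content was 61.6% against 56.4%, and the median observed over expected CpG was 0.796 against 0.563. Among the start sites of members with Pol II peaks in all 4 lists the median CpG ratio was 0.879 (48 start sites of 37 genes), and among those without a Pol II promoter peak in any list it was 0.474 (7 genes).

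Pol II was found at most chaperone promoters, and more often than at genes at large. In mESCs of either genotype, 52 of 81 members had a promoter peak (64.2%), against 35.3% and 32.1% of all autosomal protein-coding genes. In MEFs, 68 members had one in each genotype (84.0%), against 55.3% and 52.3%. Peaks in all 4 lists were seen at 45 members, or 55.6%, against 26.1% of all genes. The median promoter fold over members with a peak was 5.02, 5.05, 17.7 and 14.4, against 4.39, 4.53, 13.3 and 11.6 over all genes with one.

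The gene record is not always where Pol II sat. Hsp90aa1, the stress-inducible cytosolic HSP90, has a record that begins with a long upstream isoform, and at that TSS a peak was listed only for KO mESCs (4.71). At the best of its annotated starts the fold was 13.8, 12.9, 23.7 and 29.2, so that its main promoter was occupied in every library. Dnajc25 likewise had no peak at the record TSS in any list and folds of 5.25, 6.21, 25.6 and 26.1 at another annotated start, and Dnajc18 had folds of 3.87, no peak, 15.5 and 9.21 there. With any annotated start allowed, 57, 54, 71 and 71 members had a peak (70.4%, 66.7%, 87.7% and 87.7%), against 39.0%, 35.2%, 58.9% and 55.9% of all genes.

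**Figure D1:**
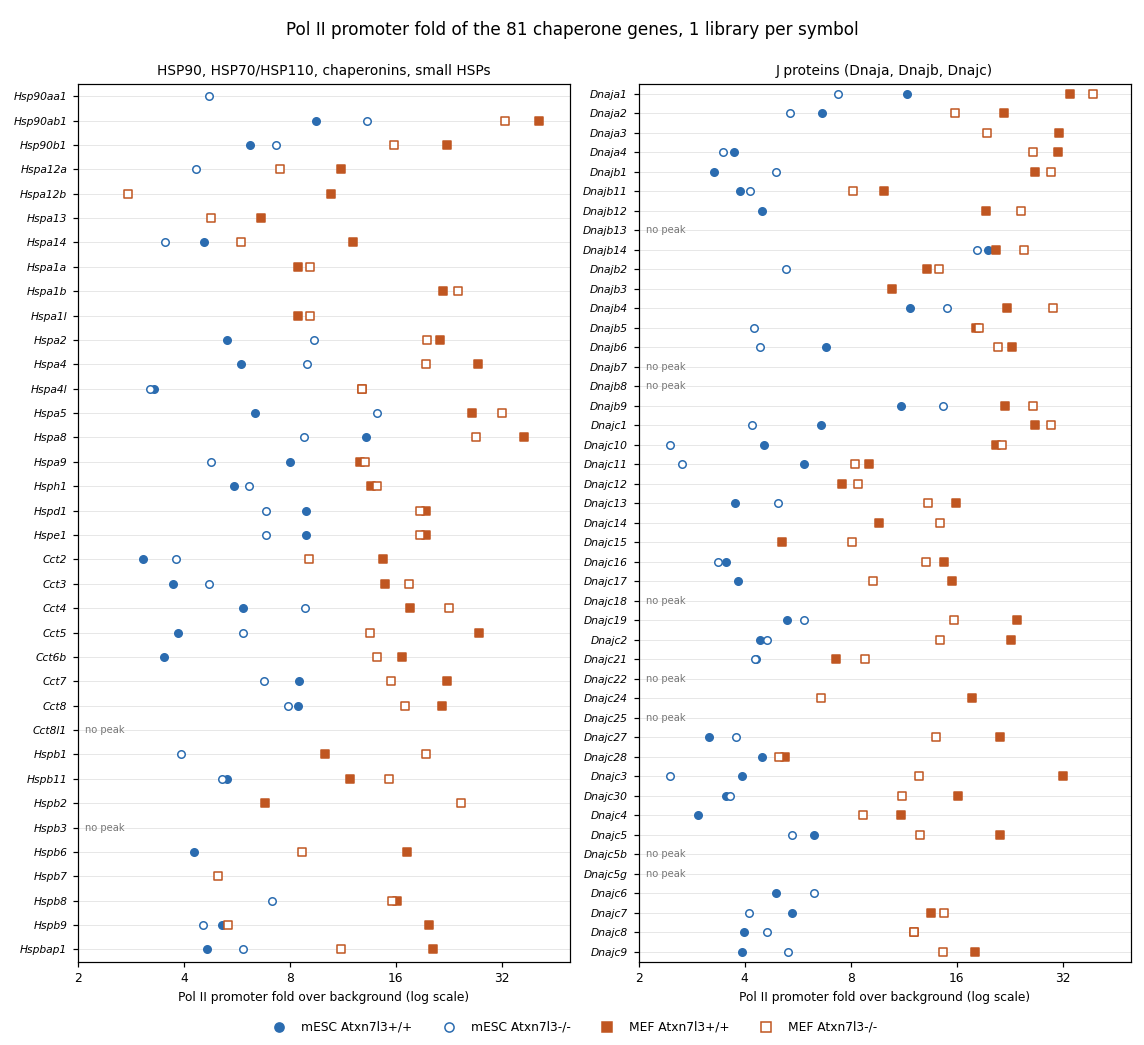
Pol II promoter fold over background (log axis) of each of the 81 genes at the TSS of the gene record, in a panel for J proteins and a panel for the other groups, with 1 symbol per library and none where the list held no peak. Circles are mESCs, squares are MEFs, and filled symbols are WT and open symbols KO. MEF symbols lie to the right of mESC symbols at nearly every gene, and WT and KO symbols of a cell type mostly lie close together, with wide gaps at Hspb2, Hspa12b, Hspb9, Dnajc24 and Dnajc3 in MEFs.

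Among the HSP90 genes, Hsp90ab1, the constitutive cytosolic form (chr17:45567775-45573271), had promoter folds of 9.5, 13.3, 40.8 and 32.8. In WT MEFs it ranked 33rd of 11497 genes with a promoter peak. Hsp90b1, which encodes GRP94, had 6.15, 7.29, 22.4 and 15.8, and its window also holds the TSS of Ttc41, 302 bp away on the other strand. In both genes the KO value was the higher one in mESCs and the lower one in MEFs.

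In the HSP70 and HSP110 group, Hspa8, the constitutive cytosolic HSC70 (chr9:40800984-40810087), had folds of 13.2, 8.76, 37.0 and 27.0, lower in KO in both cell types. Hspa5, the BiP gene (chr2:34771970-34777547), had folds of 6.36, 14.2, 26.3 and 32.1, higher in KO in both cell types. Hspa4, of the HSP110 type, had 5.81, 8.96, 27.4 and 19.5, and Hsph1, which encodes HSP110, had 5.57, 6.11, 13.6 and 14.2. A relative of Hspa4, Hspa4l, had 3.3, 3.2, 12.8 and 12.8. The mitochondrial HSP70 gene Hspa9 had 8.0, 4.79, 12.7 and 13.1 at the record TSS, but 22 in WT MEFs at another annotated start, so that the nearly equal MEF values hold for the record TSS only. Hspa2, best known for its role in spermatogenesis, was also occupied in somatic and stem cells, at 5.32, 9.39, 21.4 and 19.6.

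The inducible HSP70 genes were marked by Pol II in MEFs only. Hspa1b had no promoter peak in either mESC list, and its folds in WT and KO MEFs were 21.8 and 24.1. Hspa1a and Hspa1l lie head to head with 547 bp between their TSSs and share a single MEF peak of 8.46 and 9.13, whose summit was 18 and 31 bp downstream of the Hspa1a TSS and at -565 and -578 bp relative to that of Hspa1l. Hspa1l is mainly known from the testis, and its value here comes from the shared window.

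The 2 genes of the mitochondrial chaperonin, Hspd1 (HSP60, chr1:55077835-55088243) and Hspe1 (HSP10, chr1:55088132-55091307), share one promoter, with 111 bp between the record TSSs. One peak served both, at 8.87, 6.86, 19.5 and 18.7, and the summit lay on the Hspd1 side in all 4 lists (623, 478, 444 and 459 bp downstream of the Hspd1 TSS).

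The cytosolic chaperonin CCT folds actin and tubulin, and all genes with CCT symbols except Cct8l1 had promoter peaks in WT mESCs and in both MEF lists. Cct4 had folds of 5.91, 8.82, 17.6 and 22.7, and Cct3 had 3.73, 4.71, 14.9 and 17.5, so that both were higher in KO in both cell types. Cct7 had 8.52, 6.78, 22.4 and 15.5, and Cct8 had 8.43, 7.89, 21.6 and 17.0, which were lower in KO in both. Cct2 (3.07, 3.8, 14.7 and 9.09) and Cct5 (3.85, 5.91, 27.6 and 13.5) were higher in KO mESCs and lower in KO MEFs. The testis-enriched subunit gene Cct6b had 3.52, no peak, 16.7 and 14.2, in a window with Zfp830, whose TSS is 24 bp away. Cct8l1, a relative of Cct8, had no promoter peak in any list. The windows of Cct3, Cct5 and Cct7 also hold the TSS of another gene (Tsacc, Fam173b and Pradc1), and a peak there cannot be assigned to either gene of the pair. Tcp1, which encodes the first CCT subunit and lies outside the symbol rule, had 4.28, 6.31, 23.0 and 19.4.

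Among the small heat shock protein genes, Hspb1 (chr5:135887919-135889563) had no peak, 3.94, 10.1 and 19.5, where the KO mESC peak had its summit at 1058 bp and the MEF peaks at 67 and 74 bp. Hspb2 (chr9:50751078-50752354) had no peak in mESCs and folds of 6.8 and 24.6 in MEFs. Hspb2 overlaps Cryab, the alpha-B crystallin gene, which is transcribed from the opposite strand, and the summits at -727 and -971 bp lay inside Cryab, whose own promoter fold was the same. Hspb8, a partner of BAG3 in selective autophagy, had no peak, 7.11, 16.1 and 15.6. Hspb11, a component of intraflagellar transport, had 5.3, 5.13, 11.9 and 15.3 in a window shared with Lrrc42. Hspb6 had 4.28, no peak, 17.2 and 8.64, with the Proser3 TSS 121 bp away. For Hspb9, a testis gene, the folds of 5.13, 4.54, 19.9 and 5.35 came with summits at -1594, -1469, -1480 and 101 bp, so that the first 3 lie nearer to the TSS of Kat2a, 1385 bp away, than to its own. Hspb3, a muscle gene, had no peak in any list.

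Of the class A J proteins, Dnaja1, a partner of HSC70, stood highest, with 11.6, 7.37, 33.6 and 39.1. In KO MEFs it ranked 35th of 10890 genes with a promoter peak. Dnaja2 had 6.63, 5.38, 21.8 and 15.8, and Dnaja4 had 3.73, 3.47, 31.0 and 26.3. Dnaja3, the mitochondrial member, had no mESC peak at its record TSS and 31.3 and 19.5 in MEFs, but that start is 48 bp from the TSS of Vasn on the same strand.

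In class B, Dnajb14, a membrane protein of the ER, was the chaperone gene with the highest mESC fold, at 19.7, 18.3, 20.7 and 24.9, and ranked 47th of 7336 genes in WT mESCs. Unlike at most members, its WT values in the 2 cell types were nearly equal. Dnajb9, an ER stress gene, had 11.1, 14.6, 21.9 and 26.4, and Dnajb4 had 11.8, 15.0, 22.2 and 30.1 in a window shared with Fubp1. At another annotated start the WT MEF fold of Dnajb4 was 32.6, above that of KO. Dnajb1, the classical HSP40 gene, had 3.27, 4.91, 26.7 and 29.6, higher in KO in both cell types. Dnajb6, a suppressor of polyglutamine aggregation, had 6.8, 4.42, 23.0 and 21. Dnajb11, another J protein of the ER lumen, had 3.87, 4.14, 9.96 and 8.11. The windows of these 3 genes also hold the TSS of another gene, Tecr at 222 bp, Gm5129 at 248 bp and Tbccd1 at 176 bp, and a peak there cannot be assigned to either gene of the pair.

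Class C holds J proteins with very varied tasks. Dnajc3 had 3.93, 2.46, 32 and 12.5, so that the KO value was the lower one in both cell types, whereas the other genes with an ER stress element went differently, Hspa5 with the higher value in KO in both and Hsp90b1 in mESCs only. Dnajc1, an ER membrane protein, had 6.58, 4.19, 26.7 and 29.6. Dnajc19, of the mitochondrial import motor, had 5.28, 5.91, 23.8 and 15.7. Dnajc5, the cysteine string protein, had 6.31, 5.46, 21.3 and 12.6, and Dnajc11 of the mitochondrial inner membrane organisation had 5.89, 2.65, 9.0 and 8.24. Over all class C genes with a promoter peak the folds ran from 2.94 (Dnajc4) to 6.58 (Dnajc1) in WT mESCs and from 5.1 (Dnajc15) to 32 (Dnajc3) in WT MEFs. Hspbap1, outside the families, had 4.65, 5.91, 20.4 and 11.2. Its MEF summits, at -1050 and -1034 bp, lie nearer to the TSS of Dirc2, 1019 bp away, than to its own.

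Promoter calls differed between genotypes at 12 members in mESCs and 2 in MEFs. Of the 52 members with a peak in WT mESCs, 6 had none in KO (11.5%, against 22.8% of all genes with a WT peak). Of the 29 without a WT peak, 6 had one in KO (20.7%, against 7.49%). The first are Dnajb12 (4.49 in WT), Dnajc28 (4.47), Hspb6 (4.28), Dnajc17 (3.82), Cct6b (3.52) and Dnajc4 (2.94), and the second are Hspb8 (7.11 in KO), Dnajb2 (5.24), Hsp90aa1 (4.71), Hspa12a (4.34), Dnajb5 (4.26) and Hspb1 (3.94). These 12 folds lay between 2.94 and 7.11, and those for Hsp90aa1 and Hspb6 concern the record TSS only, since Hspb6 had a KO mESC peak of 3.91 at another annotated start. The windows of Dnajc17 and Hspa12a also hold the TSS of Zfyve19 (178 bp away) and Eno4 (229 bp away), and these peaks cannot be assigned to either gene.

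In MEFs, 1 of 68 members lost its call, Dnajb3 (1.47%, against 8.01%), and 1 of 13 gained one, Hspb7, the cardiac small heat shock protein, with 5.00 in KO (7.69%, against 3.37%). Dnajb3 overlaps another gene record in the Ugt1a locus, and the Hspb7 peak had its summit 976 bp downstream of the TSS.

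Where both lists had a promoter peak, WT and KO folds were mostly alike. The median log2 ratio of KO over WT fold was 0.02 over 46 members in mESCs, as over all genes (0.02), and -0.13 over 67 members in MEFs, against -0.22 over all autosomal protein-coding genes. In mESCs, 5 members were over 1.5 times higher in KO (10.9%, against 10.8%) and 8 over 1.5 times lower (17.4%, against 10.9%). The higher ones were Hspa5 (log2 ratio 1.16), Hspa2 (0.82), Hspa4 (0.63), Cct5 (0.62) and Dnajb1 (0.59). The lower ones were Dnajc11 (-1.15), Dnajc10 (-0.88), Hspa9 (-0.74), Dnajc3 (-0.67), Dnaja1 (-0.65), Dnajc1 (-0.65), Dnajb6 (-0.62) and Hspa8 (-0.59). At the best of its annotated starts Dnajc11 had 5.89 and 4.0 in mESCs and was within the 1.5-fold limit, and Hspa8 had 16.5 and 8.76.

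In MEFs, 3 members were over 1.5 times higher in KO (4.48%, against 5.76%), namely Hspb2 (1.86), Hspb1 (0.95) and Dnajc15 (0.66), an inhibitor of respiratory chain supercomplex formation. Lower by the same measure were 15 members (22.4%, against 23.9%), the furthest being Hspa12b (-1.92, with a fold of 2.78 in KO), Hspb9 (-1.89), Dnajc24 (-1.43, from 17.7 to 6.58), Dnajc3 (-1.35), Hspa14 (-1.06), Cct5 (-1.03) and Hspb6 (-1.0). Dnajc24 serves in diphthamide synthesis and Hspa14 at the ribosome, and the TSS of Gm45902 lies 24 bp from that of Hspa14, so that its fold cannot be assigned to either. These shares are near those of all genes, except for the lower ones in mESCs. At the record TSS only Dnajc3 was past the 1.5-fold limit in the same direction in both cell types (with any start allowed also Hspa9), and Cct5 was past it in opposite directions. The Cct5 summits lay at different places, at 77 and 94 bp in mESCs and at -402 and -385 bp in MEFs. The latter are on the Fam173b side of the shared window.

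**Figure D2:**
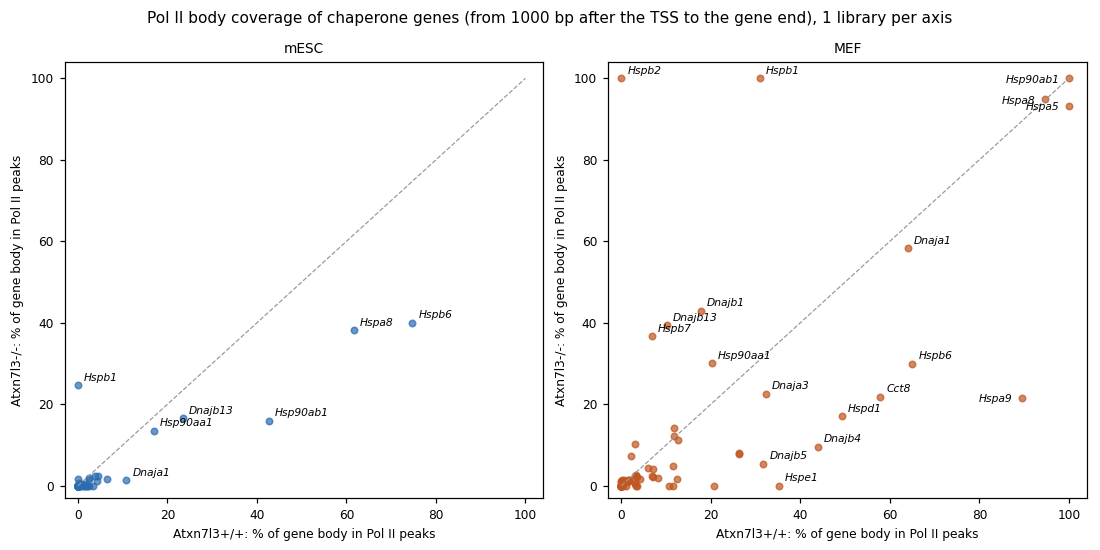
Share of the gene body in Pol II peaks, from 1000 bp after the TSS to the gene end, in WT (x axis) and KO (y axis) libraries of each cell type, with 1 point per gene for the 79 members longer than 1000 bp. Points on the dashed line have equal shares. Most mESC points lie at or near 0, and in MEFs Hspb2 and Hspb1 lie at 100% in KO far above the line, whereas Hspa9, Cct8 and Hspd1 lie below it. Hspb2 and Hspb1 are only 1277 and 1645 bp long, and a single KO MEF peak spans each of them together with its promoter.

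Pol II peaks within the gene body marked a smaller group of chaperones. Of the 79 members longer than 1000 bp, 24 had a body peak in the WT mESC list and 17 in the KO one (30.4% and 21.5%, against 21.6% and 14.0% of all genes). In MEFs these were 51 and 46 (64.6% and 58.2%, against 43.5% and 35.0%). The body share was lower in KO at 23 of 26 members with a body peak in either mESC list (88.5%, against 77.4%) and at 37 of 54 in MEFs (68.5%, against 76.2%). The KO lists were also the shorter ones, and when the longer WT list was reduced by -log10 p to the length of the KO list, 22 members had a body peak in WT mESCs (17 in KO) and 47 in WT MEFs (46 in KO). Shares of all genes at equal list lengths are not given.

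In MEFs of both genotypes, Pol II peaks covered over 90% of the body of Hsp90ab1, Hspa8 and Hspa5. Hsp90ab1 was covered at 42.7%, 15.9%, 100% and 100%. For Hspa8 the shares were 61.6%, 38.2%, 94.6% and 94.9%, and for Hspa5 they were 0%, 0%, 100% and 93.3%. In mESCs, KO shares were thus lower at Hsp90ab1 and Hspa8, with the remaining body peaks in the downstream part of both genes, whereas in MEFs the genotypes were nearly equal.

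Hspa9 had body shares of 0%, 1.73%, 89.5% and 21.6%. Hspd1 had 1.65%, 0%, 49.2% and 17.0%, and Cct8 had 0%, 0%, 57.9% and 21.8%. At Hspa9, Hspd1 and Cct8 the KO MEF share was the lower one, whereas Cct7 (5.96% and 4.31%) and Cct3 (0% and 1.26%) had little body coverage in either MEF list. Others with a lower share in KO MEFs were Dnajb4 (43.9% and 9.52%), Hspe1 (35.2% and 0%), Dnajb5 (31.7% and 5.33%) and Hsp90b1 (26.4% and 7.99%). Dnaja1 differed little, at 64.0% and 58.3%.

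The KO share was the higher one at 3 of 26 members with a body peak in either mESC list (11.5%, against 22.2% of all genes) and at 16 of 54 in MEFs (29.6%, against 22.2%). Hspb1 went from 31.0% in WT MEFs to 100% in KO MEFs, and was at 0% and 24.7% in mESCs. Dnajb1 had 17.7% and 43.0% in MEFs, Hsp90aa1 had 20.2% and 30.1%, and Hsph1 had 3.13% and 10.2%. The Hsp90aa1 stretch is counted from the record TSS and includes the peak at its other annotated start (23.7 and 29.2). Its shares are therefore not those of a body without a promoter. Hspb2 had 0% and 100%, together with Cryab, and Hspb7 had 6.74% and 36.7%. Hspb1 and Hspb2 are short (1645 and 1277 bp). A single KO MEF peak spans each, from -421 to 3213 bp and from -6581 to 2825 bp of the TSS. Their body shares are thus not separate from the promoter or neighbour peak. At Dnajb13, a gene of sperm tails without a promoter peak, the values of 10.1% and 39.4% come from a gene that overlaps others, and its share cannot be assigned to it.

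**Figure D3:**
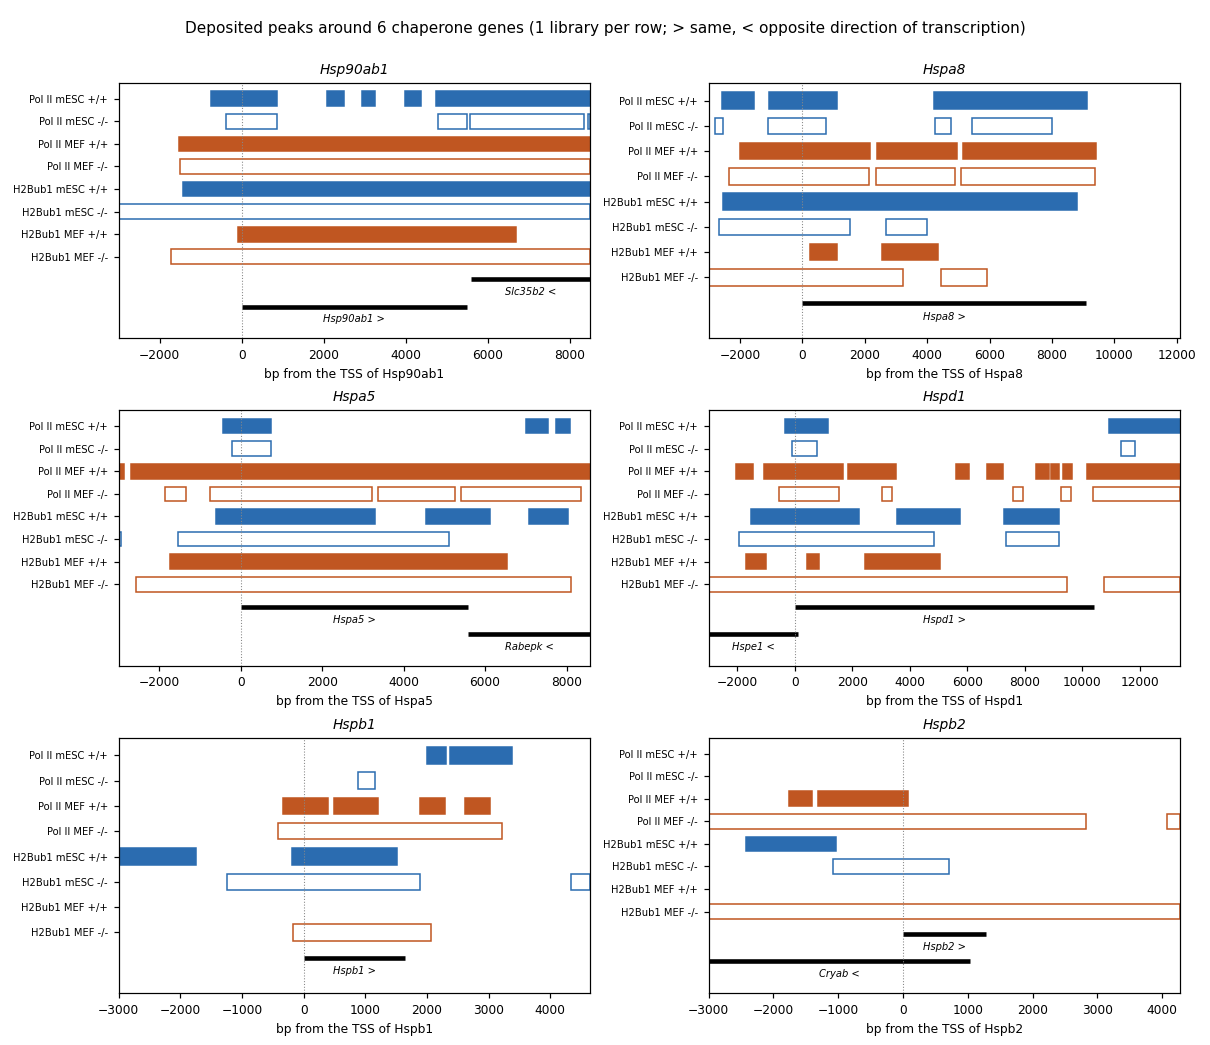
Peaks of the 8 lists around 6 chaperone genes, drawn as boxes by distance in bp from the TSS in the direction of transcription, with 1 library per row and gene records as black bars. Filled boxes are WT, open boxes KO, blue mESC and orange MEF. H2Bub1 covers the whole of Hsp90ab1 in every list, but at Hspa8 the box that spans the gene in WT mESCs is replaced by 2 short boxes in KO mESCs, and at Hspb1 and Hspb2 the KO MEF boxes of both Pol II and H2Bub1 span the gene.

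H2Bub1 was found on more chaperone genes in KO than in WT cells, and on most of them in KO. In mESCs a peak overlapped 64 members in WT and 77 in KO (79.0% and 95.1%, against 55.7% and 62.1% of all genes), and in MEFs 45 and 69 (55.6% and 85.2%, against 31.7% and 54.3%). The WT counts depend on the peak limit, and with only peaks at a -log10 q of 3 or more they were 37 in mESCs and 12 in MEFs, with 52 members in place of 25 having a peak in KO MEFs alone. The KO counts at that limit were 58 in mESCs and 64 in MEFs. Shares of all genes at that limit are not given. Of the 17 members without a peak in WT mESCs, 14 had one in KO (82.4%, against 21.5%), and of 36 in MEFs, 25 had one (69.4%, against 33.5%). Among these 14, only Hspa4l and Dnajc19 had a Pol II promoter peak in an mESC list, with KO shares of 0.808% and 5.96%. The mESC share of 82.4% thus mostly concerns members without Pol II at the promoter. Of the 46 members with Pol II promoter peaks in both mESC lists, 44 had an H2Bub1 peak in WT and 46 in KO. In MEFs the count was higher in KO among such members as well. The covered share was higher in KO at 66 of 78 members with a peak in either mESC list (84.6%, against 83.1%) and at 66 of 70 in MEFs (94.3%, against 98.7%).

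Where Pol II was called at the promoter in WT and KO alike, chaperones were near the other genes. The covered share was higher in KO at 38 of 46 such members in mESCs (82.6%, against 84.7%) and at 60 of 67 in MEFs (89.6%, against 93.3%). The median covered share over these members was 37.7% in WT and 48.2% in KO mESCs, against 19.8% and 43.1% over all such genes. In MEFs it was 8.71% and 52.0%, against 2.45% and 51.5%. Over all lengths, the WT medians of chaperone genes were thus above those of all genes with Pol II, and the KO medians differed from them by less. Length bears on this share, and chaperone genes had a median length of 17443 bp against 17629 bp over all autosomal protein-coding genes. Split by length into genes up to 5000 bp, up to 20000 bp, up to 50000 bp and longer, the WT mESC medians of members were 65.1%, 54.9%, 11.5% and 3.42%, against 72.5%, 38.8%, 15.6% and 4.58% over all such genes, so that only the class of 5000 to 20000 bp was higher. The WT MEF medians were 0%, 29.0%, 6.05% and 8.0%, against 0%, 2.05%, 3.7% and 2.9%. Within these classes the KO medians also differed, at 76.1%, 59.8%, 28.9% and 26.7% in KO mESCs, against 99.4%, 64.4%, 35.1% and 17.5% over all such genes, and at 99.0%, 81.7%, 38.6% and 41.3% in KO MEFs, against 97.2%, 59.4%, 44.2% and 38.2%. A class held between 6 and 23 members.

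**Figure D4:**
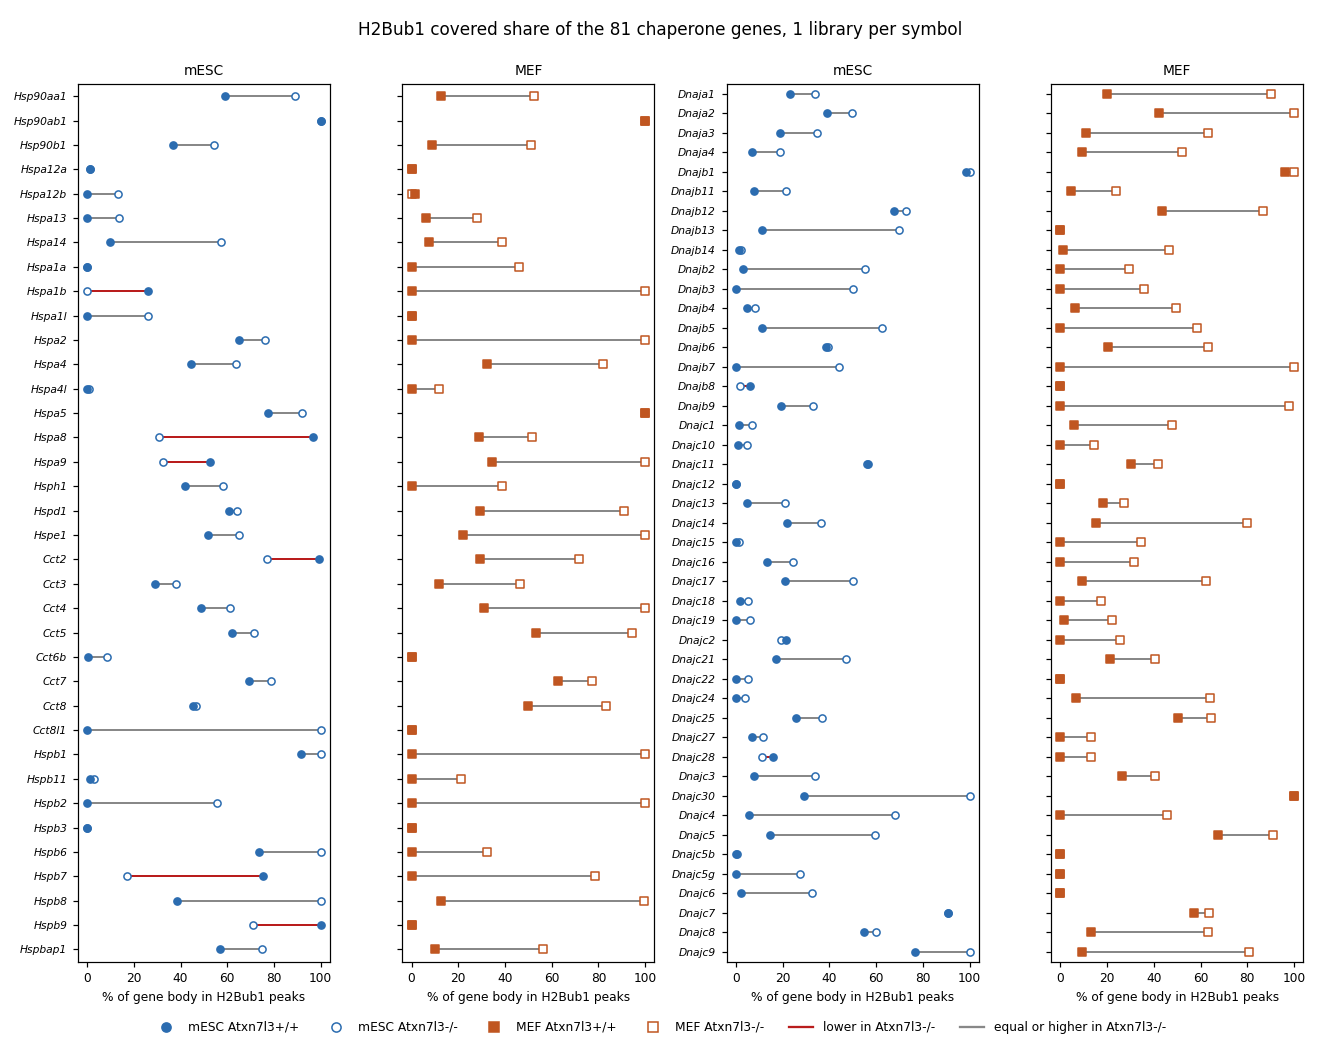
Share of the gene body in H2Bub1 peaks for each of the 81 genes, in mESCs (circles) and MEFs (squares), with filled WT and open KO symbols joined by a line, and 1 library per symbol. Lines run to the right at most genes. Red lines, where KO was lower, are long in mESCs at Hspa8, Hspb7, Hspb9, Hspa1b, Cct2 and Hspa9.

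H2Bub1 covered most of Hsp90ab1, Hspa5 and Dnajb1 in the WT lists as well. Hsp90ab1 was covered at 100% in all 4 lists, and Hspa5 at 77.6%, 91.9%, 100% and 100%. Dnajb1 had 98.4%, 100%, 96.3% and 100%. At Hsp90ab1, where the share could not be higher in KO, the peak fold was 5.25, 4.57, 3.66 and 4.17. Hsp90aa1 had 59.0%, 89.2%, 12.5% and 52.6%, Hsp90b1 36.9%, 54.4%, 8.71% and 51.1%, and Hsph1 41.9%, 58.1%, 0% and 38.6%.

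The H2Bub1 shares of chaperonin genes varied between genes and lists. Hspd1 was covered at 60.7%, 64.3%, 29.3% and 90.9%, and Hspe1 at 51.8%, 65.1%, 22% and 100%. Cct4 had 48.6%, 61.1%, 30.9% and 99.9%, Cct5 had 62.0%, 71.4%, 53.4% and 94.6%, and Cct7 had 69.3%, 78.8%, 62.8% and 77.1%. Cct8 had 45.5%, 46.7%, 49.8% and 83.3%, and Cct3 had 29.2%, 38.1%, 11.7% and 46.6%. Every CCT gene except Cct2 and Cct8l1 was higher in KO in both cell types, by more in MEFs than in mESCs at all of these but Cct6b, which had 0.408%, 8.34%, 0% and 0.182%. Cct8l1, without a Pol II promoter peak, had 0%, 100%, 0% and 0%, and under the stricter q limit its KO minus WT difference was 0.

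The largest differences were 0% against 100%, at short genes in MEFs and at Cct8l1 in mESCs. In MEFs this was seen at Hspb1 (91.8% and 100% in mESCs), Hspb2 (0% and 55.7% in mESCs), Hspa2 (65.1% and 76.1% in mESCs), Hspa1b and Dnajb7. Dnajb7 overlaps another gene record and had no Pol II promoter peak. In mESCs the largest gains in KO after Cct8l1 were at Dnajc30 (29.0% and 100%), Dnajc4 (5.56% and 68.2%), Hspb8 (38.3% and 100%) and Dnajb13 (11.1% and 69.8%). With the stricter limit on the peaks, a -log10 q of 3, the differences at Dnajc4 and Dnajb13 were 0, and those at Dnajc30 and Hspb8 were 71.0 and 86.0 points. Dnajc1, with 197177 bp, was covered at 1.18%, 6.98%, 5.96% and 47.9%.

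A lower share in KO was measured at 11 members in mESCs (13.6%, against 9.83% of all genes) and at 1 in MEFs (1.23%, against 0.529%). In mESCs, 6 were lower by over 5 percentage points. At 5 of these 6 the share was higher in KO MEFs by over 5 points, which held for 6.17% of members and for 2.3% of all genes. Hspa8 was covered at 96.7% in WT and 30.9% in KO mESCs, while in MEFs the shares were 28.8% and 51.4%. Hspb7 had 75.4% and 17.1%, with 0% and 78.5% in MEFs. Hspb9 had 100% and 70.9%, and 0% in both MEF lists. Hspa1b had 25.9% and 0%, with 0% and 100% in MEFs. Cct2 had 99.2% and 77.0%, with 29.3% and 71.9% in MEFs, and Hspa9 had 52.8% and 32.4%, with 34.5% and 100%. With the stricter limit, Cct2 and Hspb9 became higher in KO (by 48.2 and 70.9 points) and Hspb7 and Hspa1b had no difference, whereas Hspa8 and Hspa9 stayed lower in KO (-80.0 and -12.7 points). At Hspa8 the KO mESC library was also lower in promoter fold (8.76 against 13.2) and in Pol II body share (38.2% against 61.6%), and the part of Pol II in the H2Bub1 difference was not tested. The single member lower in MEFs was Hspa12b, at 1.54% and 0%, where the promoter fold was lower as well.

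H2Bub1 began nearer to the TSS in KO than in WT libraries. The median Pol II summit over members was 106, 137, 87.5 and 101 bp after the TSS, against 74.0, 73.0, 80.0 and 88.0 bp over all autosomal protein-coding genes. The first H2Bub1 base in the gene body was at a median of 72.0 bp from the TSS in WT mESCs and 272 bp in WT MEFs, and at 0 in both KO libraries, over members with a peak in both genotypes. Over all genes the WT medians were 124 and 929 bp. The TSS itself lay inside an H2Bub1 peak at 28, 56, 8 and 50 members, or 34.6%, 69.1%, 9.88% and 61.7%, against 18.7%, 39.6%, 3.65% and 36.1% of all genes.

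Between cell types, promoter occupancy at the record TSS by Pol II in WT and KO MEFs without any in mESCs was found at 11 members (13.6%, against 14.2%). They were Hspa1a, Hspa1b and Hspa1l, the atypical HSP70 genes Hspa12b and Hspa13, Hspb2, and the J protein genes Dnaja3, Dnajc12, Dnajc14 (in a window with Tmem198b), Dnajc15 and Dnajc24. At another annotated start, Dnaja3 and Dnajc14 had peaks in WT mESCs (4.07 and 4.21), so that with any start allowed 9 members remained (11.1%, against 14.1%). Hspa12b is known from endothelial cells. The reverse was seen at 1 member, Dnajc6, which encodes auxilin, the HSP70 partner that uncoats clathrin vesicles (1.23%, against 0.615%). It had mESC folds of 4.92 and 6.31 with H2Bub1 shares of 2.24% and 32.6%, and neither mark in MEFs. As the MEF lists are longer, the count for MEFs and that for mESCs are not comparable.

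No Pol II promoter peak at the record TSS was listed for 10 members (12.3%, against 41.1% of all genes), namely Cct8l1, Hspb3, Dnajb7, Dnajb8, Dnajb13, Dnajc5b, Dnajc5g, Dnajc18, Dnajc22 and Dnajc25. Several of these are testis or tissue-restricted genes, and Dnajc18 and Dnajc25 had a peak at another start. No H2Bub1 peak in either genotype was listed for 3 members in mESCs, Hspa1a, Hspb3 and Dnajc12 (3.7%, against 34.8%), and for 11 in MEFs (13.6%, against 45.5%). Dnajc12, a co-chaperone of aromatic amino acid hydroxylases, had a MEF promoter fold of 7.57 and 8.37 with no H2Bub1 in any list, and the TSS of Sirt1 lies 739 bp from its own.

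Co-chaperones and folding enzymes outside the symbol rule, 41 partner genes, had promoter peaks at 30, 26, 38 and 37 genes (73.2%, 63.4%, 92.7% and 90.2%). Over all genes the shares were 35.3%, 32.1%, 55.3% and 52.3%. The partner list was chosen with earlier results of these data known. Hsf1, the heat shock factor, had 8.06, 7.99, 21.3 and 16.3, with H2Bub1 shares of 63.2%, 82.1%, 75.7% and 92.6%. Hsf2 had 4.44, 4.42, 10.9 and 6.54. Calls differed between mESC genotypes at Fkbp5 (3.2), Pfdn5 (3.00), Pfdn6 (3.56), Pdia6 (4.01) and Dnlz (3.98), with a peak in WT only, and at Clpb (3.11), with a peak in KO only. In MEFs the call differed at Fkbp5, a co-chaperone of steroid receptors, with 3.44 in WT and no peak in KO. Both differences at Fkbp5 concern the record TSS alone, since at the best of its annotated starts the folds were 6.84, 7.52, 14.2 and 23.5. All 41 genes had H2Bub1 peaks in both mESC lists and in the KO MEF list, and 30 in the WT MEF list. In the order of the lists these are 100%, 100%, 73.2% and 100%, against 55.7%, 62.1%, 31.7% and 54.3% of all genes.

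Other widely transcribed genes are given for comparison. Of 96 ribosomal protein genes, 80.2%, 78.1%, 86.5% and 86.5% had promoter peaks, and of 39 proteasome genes 53.8%, 46.2%, 89.7% and 87.2%. Where Pol II was called at the promoter in WT and KO, the median H2Bub1 share was 100%, 100%, 75.7% and 100% for ribosomal protein genes, whose median length is 3500 bp, and 30.4%, 74.0%, 22.4% and 80.6% for proteasome genes. For chaperones these medians were 37.7%, 48.2%, 8.71% and 52.0%. A higher share in KO mESCs was found at all 15 proteasome genes with Pol II in both mESC lists, at 18 of 73 ribosomal protein genes and at 38 of 46 chaperones (84.7% of all such genes). As the WT mESC median of ribosomal protein genes was already 100%, many of them could not be higher in KO. Their count is therefore not comparable with the others.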

How the data were processed

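ChIP-seq peak lists for H2Bub1 and Pol II from WT and Atxn7l3-/- mESCs and MEFs were used, 8 lists of the 16 labelled samples. The inputs and the libraries of serine 2 phosphorylated Pol II were not analysed here. The submitters' processing notes name bcl2fastq 2.17.1.14, Bowtie 1.0.0, MACS2 2.1.1.20160309 and mm10. The authors deposited narrow peaks for Pol II and broad peaks for H2Bub1, 1 list per library. They scaled H2Bub1 signal on intergenic reads. How scaling entered the calls, the control used and the thresholds are not given in the sources used here. The deposited fold is a linear ratio over local background. The authors also deposited the -log10 p and -log10 q of each peak, and summit offsets in the narrow lists. Longer and denser lists give more calls and larger covered shares.

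Peaks were set against the 20807 autosomal protein-coding genes of GENCODE M21 with Python 3.11.15, numpy 2.4.6 and scipy 1.17.1, in scripts tested on simulated peak lists, and figures were drawn with matplotlib 3.10.9. A call needed an overlap of at least 1 bp. With 1 library per group no test was run. The members and all gene lists were chosen with earlier results of these data known. The rule for named genes took all HSP90, HSP110, chaperonin and CCT genes, the 3 highest WT promoter folds of each other group and cell type, genes whose Pol II calls differ (in mESCs the 5 highest each way), the 5 largest H2Bub1 gains and every loss of over 5 percentage points, genes occupied in 1 cell type or in no list, genes with a heat shock element, and a few partners. Others were named after their values were seen.

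Alternatives were peaks with a stricter -log10 q, equal peak numbers in WT and KO, a narrower promoter (100 bp before to 300 bp after the TSS), summits inside the window, a call at 10% of the gene, joining of peaks less than 1000 bp apart, bodies from 2000 bp, and members at least 5000 bp from other genes. Added after the data were seen were other annotated starts, unshared promoters, members occupied by Pol II in both genotypes, the pair of heat shock units and the ER stress element.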

Additional observations from a re-analysis of the deposited data

Results flagged for a closer look

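At 5 members the H2Bub1 covered share was lower in KO mESCs and higher in KO MEFs, by over 5 percentage points each way (6.17%, against 2.3% of all autosomal protein-coding genes). With 1 library per group, the difference between the cell types was not tested. For Hspa8, KO minus WT was -65.8 points in mESCs and 22.6 points in MEFs. Hspb7 had -58.3 and 78.5 points, and Hspa1b had -25.9 and 100 points. Cct2 had -22.2 and 42.5 points, and Hspa9 had -20.4 and 65.5 points. Hspa8 was the only one of the 5 for which promoter fold, Pol II body share and H2Bub1 share were all lower in KO mESCs.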

How the results depend on the processing

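Read depth is unknown, and 1 library per group gives no measure of error, so small differences between lists cannot be judged. At a -log10 q limit of 3, 37 members had an H2Bub1 peak in WT mESCs and 12 in WT MEFs (64 and 45 with all peaks). In KO these were 58 and 64 (77 and 69 with all peaks). Members with a peak in KO MEFs only numbered 52 (25), and members with one in WT only numbered 0 in both cell types (1 in each). Under that setting the H2Bub1 difference of KO minus WT in mESCs turned to 48.2 points for Cct2 and to 70.9 points for Hspb9. With equal numbers of peaks, 4 members had an H2Bub1 peak in WT mESCs only. A gene call at 10% of the body gave 0 members with a WT-only peak in MEFs. With the body from 2000 bp, 11 members had a Pol II body peak in KO mESCs. The narrow promoter gave 0 KO-only Pol II calls in MEFs, and the summit rule gave 2 WT-only and 4 KO-only calls. Among the 20 members at least 5000 bp from another gene, 50% had a Pol II promoter peak in WT mESCs (64.2% of all members). In KO mESCs only, 20% had one (7.41%), and 0% had one in WT MEFs only or in KO MEFs only (1.23% each). Shares of all genes under this filter are not given. Over members that Pol II occupied in WT and KO, the median H2Bub1 share in MEFs was 8.71% in WT and 52.0% in KO (20.8% and 63.8% over members with H2Bub1 in both). The cause was not tested, except that the peaks or genes that enter differ by construction. In MEFs the Pol II set held 67 members against 44 with H2Bub1 in both, as members without an H2Bub1 peak also enter it. No paired analysis was possible because each group has 1 library. Joining of peaks, other annotated starts and unshared promoters left each recomputed count within 1.5 times its reported value.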
